A study of Mus musculus with 9 samples.

Results

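CpG-dense stretches of the mouse genome are mostly free of DNA methylation, and the results below concern the few that carried it in cells given wild-type Dnmt3a2. The genome was cut into tiles of 1 kb, and a tile of chromosomes 1 to 19 was called dense when the WT pool held at least 20 covered CpG positions in it, with each strand of a CpG counted as its own position. A dense tile was a member when the mean methylation of those positions in WT was 20% or more. This held for 758 of 17293 dense tiles (4.38%), from 216670 tiles with any covered position. The other 16535 dense tiles are called dense tiles below 20%. The members were thus chosen by their WT values, so these are given as a description only and no test uses them.

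The study examined DNA methylation in mouse embryonic stem cells (ESCs) of the J1 line, named Dnmt TKO in the labels, a name used for cells without active DNA methyltransferases, at passages 7 to 10. The WWD, R and WT groups carried constructs named WWD Dnmt3a2, R Dnmt3a2 and WT Dnmt3a2, with 2 samples each. For the C group, with 2 samples, the labels record no construct, and for TKO, with 1 sample, they record none either. All 5 groups share the same Dnmt TKO background, the labels do not spell out the changes behind the names WWD and R, and they give neither clone numbers nor construct abundance. The labels name a single table for both samples of a group, so each group enters as 1 pool. No spread between samples can be given, and a test between pools compares their reads, not the conditions.

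DNA methyltransferases of the Dnmt3 family place methyl groups on unmethylated CpGs, and Dnmt3a2 is the shorter isoform of Dnmt3a that is prominent in ESCs. Its ADD domain binds the tail of histone H3 when that tail is not methylated at the lysine that marks active promoters. CpG islands, the dense clusters of CpGs at many promoters, usually carry that mark and stay unmethylated. Some CpG-rich promoters of germ-cell genes are a known exception and gain methylation in the early mouse embryo.

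Reduced representation bisulfite sequencing (RRBS) reads methylation near cut sites of the enzyme MspI, which cuts CCGG. The pools held 148992409 read calls in WWD, 210550841 in R, 196155033 in WT, 145831662 in C and 133814232 in TKO, a read call being 1 read at 1 CpG position. Their median coverage per position was 75 reads in WWD, 103 in R, 104 in WT, 66 in C and 87 in TKO. Levels below are means over the CpG positions that each of the 5 pools covered with 10 or more reads. Of the members, 757 had at least 5 such common positions and 729 had at least 10. The remaining member, on chromosome 18 from 5436001 to 5437000 (mm9), has no level here.

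The coordinates of the tables are those of mm9, for which no genome or annotation was used here, so tiles were named by gene only where the spacing of CpGs alone placed a promoter in them. RefSeq promoter windows of 300 bases (250 before to 50 after a start, GRCm38.p6) were accepted where at least 8 covered CpGs all coincided with the window's CpGs at 1 place on the same chromosome. Members held such a match in 11 of 758 tiles (1.45%), and dense tiles below 20% in 6097 of 16535 (36.9%). Among tiles of 20 to 24 covered positions, 1.67% of members and 19.4% of dense tiles below 20% held a match. A missing match does not show that a tile holds no promoter, since 15382 of 31396 windows had enough CpGs to be tried. Covered CpGs also lay further apart in members, at a median of 16 bp against 9.5 bp among tiles of 20 to 39 positions. Fewer of them then fall in a window, and how far this lowers the members' share was not tested.

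The 11 genes so placed were Hormad1, Sycp1, Lep, Lhcgr, C230014O12Rik, Gm15455, Gm36794, Gm34222, Gm43915, Gm14329 and Gm10863. Hormad1 encodes a protein of the meiotic chromosome axis and Sycp1 a core protein of the synaptonemal complex that joins paired chromosomes in meiosis. Lep encodes the hormone leptin of fat cells, and Lhcgr the receptor for luteinizing hormone in the gonads. The windows of these 4 genes are shown because they are the members whose gene has a well-known role, each 5′ to 3′ on the gene's own strand, with CpGs covered in the tables in capitals. Hormad1 and Lep lie on the forward strand, Sycp1 and Lhcgr on the reverse.
Hormad1: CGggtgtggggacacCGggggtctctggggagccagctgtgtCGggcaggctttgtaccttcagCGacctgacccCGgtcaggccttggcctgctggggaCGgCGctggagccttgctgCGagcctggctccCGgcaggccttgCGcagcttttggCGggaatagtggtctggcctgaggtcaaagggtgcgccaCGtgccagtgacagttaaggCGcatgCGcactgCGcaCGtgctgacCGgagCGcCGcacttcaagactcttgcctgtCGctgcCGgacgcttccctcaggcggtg
Sycp1: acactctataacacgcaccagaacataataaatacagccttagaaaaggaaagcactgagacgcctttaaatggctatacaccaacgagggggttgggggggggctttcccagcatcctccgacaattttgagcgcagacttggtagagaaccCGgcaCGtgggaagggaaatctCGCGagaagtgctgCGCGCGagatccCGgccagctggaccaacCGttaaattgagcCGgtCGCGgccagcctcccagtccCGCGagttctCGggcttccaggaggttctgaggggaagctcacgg
Lep: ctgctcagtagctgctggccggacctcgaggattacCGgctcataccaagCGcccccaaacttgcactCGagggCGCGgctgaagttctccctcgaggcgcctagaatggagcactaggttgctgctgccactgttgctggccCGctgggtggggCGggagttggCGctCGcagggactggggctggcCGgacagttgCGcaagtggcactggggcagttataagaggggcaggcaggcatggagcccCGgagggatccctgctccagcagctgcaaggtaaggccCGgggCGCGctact
Lhcgr: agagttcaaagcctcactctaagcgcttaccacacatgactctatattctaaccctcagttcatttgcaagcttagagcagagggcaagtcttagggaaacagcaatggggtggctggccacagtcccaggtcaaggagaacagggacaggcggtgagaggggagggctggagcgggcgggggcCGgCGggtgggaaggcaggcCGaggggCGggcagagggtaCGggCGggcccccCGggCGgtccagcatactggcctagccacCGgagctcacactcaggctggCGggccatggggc
The capitals mark the covered CpGs, 21 of 24 CpGs in Hormad1, 15 of 21 in Sycp1, 15 of 19 in Lep and 10 of 14 in Lhcgr. The letters CACGTG, a form of the E-box, stood in 3 of the 12 member windows, those of Sycp1 and of both Hormad1 starts, which overlap. Over all 31396 windows 7.14% held them. The letters TCCCGC, part of the motif of E2F factors, stood in 4 of the 12, the same 3 and Lep, against 20.2% of all windows. Both were searched on both strands, neither motif contains the other, and a match describes the letters only. Each motif contains a CpG, and the 31396 windows include those with too few CpGs to be tried. The shares of member windows and of all windows are therefore not like for like.

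At the tile around the Hormad1 start (mm9, chromosome 3, 95363001 to 95364000, 30 common positions) the mean methylation was 13.8% in WWD, 31.0% in R, 28.6% in WT, 0.592% in C and 0.135% in TKO. Within the matched window itself it was 9.96% in WWD, 23.8% in R and 0.168% in TKO. At the Sycp1 tile (chromosome 3, 102740001 to 102741000, 10 common positions, all at full depth as defined below) it was 9.18% in WWD, 29.6% in R, 21.5% in WT, 0.086% in C and 0.442% in TKO. In both meiotic gene tiles WWD lay between R and the 2 pools with no recorded construct. The Lep tile (chromosome 6, 29010001 to 29011000) stood at 18.0% in WWD, 32.8% in R, 27.7% in WT, 0.0807% in C and 0.523% in TKO. The Lhcgr tile (chromosome 17, 89191001 to 89192000) stood at 7.29% in WWD, 30.1% in R and 23.0% in WT. C stood there at 0.706% and TKO at 0% (a count of 0 that allows up to 0.377% with read calls taken as independent). In the Lep and Lhcgr tiles, too, WWD lay between R and the pools with no recorded construct. By the Fisher's exact test described below, R was called higher than TKO in all 11 promoter tiles. The shares were 99.6% of all members and 55.8% of all tested tiles. WWD was called lower than R in 10 of the 11, against 82.2% of all members and 45.1% of all tested tiles. The adjusted p by Fisher's exact test was 0.000108 at Hormad1, 0.000425 at Sycp1, 0.00931 at Lep and 0.000169 at Lhcgr. The one without a call was the C230014O12Rik tile, at 21.4% in WWD and 32.5% in R (adjusted p = 0.0883, Fisher's exact test). WWD was called higher than TKO in 5 of the 11, Hormad1 and Lep among them, against 56.1% of all members and 23.9% of all tested tiles. It was not called at Sycp1 (8.74 points higher, adjusted p = 0.0587, Fisher's exact test) or at Lhcgr (7.29 points higher, adjusted p = 0.0930).

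A list of 54 germ-cell genes, written after the first matched names had been seen and so no independent evidence, placed 16 genes: 2 in members, 7 in dense tiles below 20% and 7 in tiles with fewer positions. Of the 15 with at least 5 common positions in the window, 6 (40%) were at 20% or more in R, against 43 of 7171 matched genes of all kinds (0.600%). The median window of the list stood at 4.14% in WWD, 12.3% in R, 13.1% in WT, 0.0938% in C and 0.267% in TKO. Besides Hormad1 and Sycp1, the windows at 20% or more in R were those of Dazl, Tex101, Fkbp6 and Slc25a31. Dazl, an RNA-binding protein of germ cells, stood at 21.7% in WWD, 33.0% in R, 0% in C and 0% in TKO over 8 positions. With read calls taken as independent, a count of 0 there allows up to 0.401% in C and 0.432% in TKO. Only 8 of the 28 CpGs in the Dazl window were covered. The Dazl tile, a dense tile below 20%, stood at 6.21% in WWD and 12.1% in R over 76 common positions. Windows of other germ-cell genes stayed low, among them Ddx4, an RNA helicase of germ cells, at 3.72% in WWD, 6.24% in R, 0.0671% in C and 0.0483% in TKO. The list held both windows near the member level and windows far below it.

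Across the members, methylation was high in R, lower in WWD and near 0 in C and TKO. The 757 tiles averaged 14.2% ± 5.90 in WWD, 33.4% ± 9.78 in R, 32.1% ± 9.29 in WT, 0.526% in C and 0.598% in TKO (SD over tiles, not over samples). Dense tiles below 20% averaged 1.06% in WWD, 1.54% in R, 1.32% in WT, 0.172% in C and 0.332% in TKO. The lowest member in R stood at 11.3%, above the level of nearly all dense tiles below 20%, of which 11973 of 16485 (72.6%) stood under 1% in R and 570 at 10% or more. R reached 20% in 710 of 757 members (93.8%), 30% in 456 and 50% in 46. WWD reached 5% in 737, 10% in 577, 20% in 110 and 30% in 13. C reached 1% in 100 members and TKO in 151, and neither exceeded 5.49% in any.

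**Figure D1:**
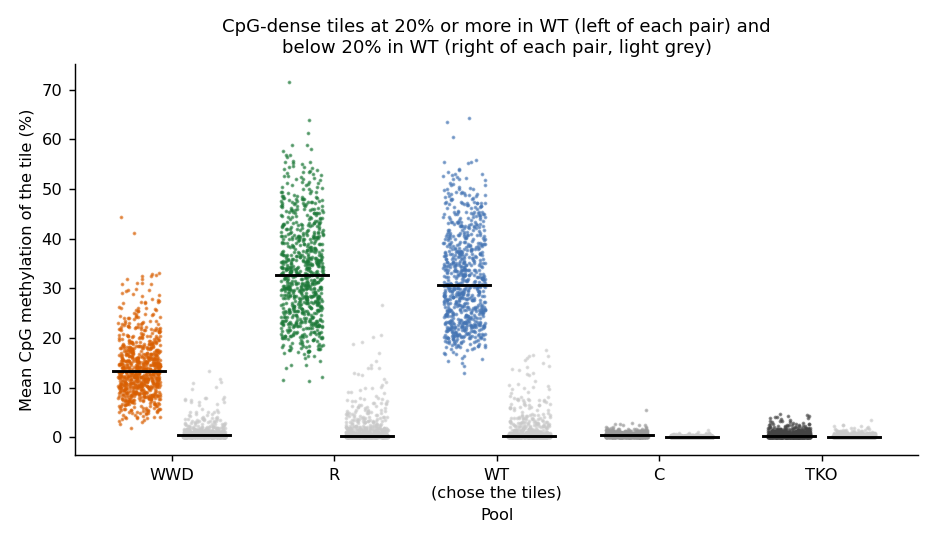
Mean CpG methylation (percent) of each member tile (left of each pair) and of 757 dense tiles below 20%, drawn at random (right of each pair, light grey), in the 5 pools; 1 point is 1 tile and the bars are medians over all tiles of the kind. Member medians are 13.4% in WWD, 32.7% in R, 30.8% in WT, 0.402% in C and 0.348% in TKO, and WT chose the tiles.

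Levels differed with the depth of the positions. Where the TKO pool had at least 0.5 times the WT coverage a position was taken as full depth, and otherwise as reduced depth. Of 14367 member positions, 9571 (66.6%) were at full depth. There the mean was 8.85% in WWD, 29.4% in R, 29.1% in WT, 0.369% in C and 0.165% in TKO, with a median coverage of 152 reads in WWD, 176 in R and 154 in TKO. At the 4796 reduced-depth positions it was 24.7% in WWD, 41.2% in R, 37.4% in WT, 0.841% in C and 1.42% in TKO, with 39 reads in WWD, 122 in R and 16 in TKO. Of the 3 pools with a construct, WWD differed most between the depth classes, as a ratio, and the median ratio of WWD to R was 0.290 at full depth (719 tiles) and 0.413 over all common positions. Whether depth itself shifted the levels was not tested. At least 50% of positions were at full depth in 603 members, all were in 69 and none in 6.

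Each tile was tested between 2 pools by Fisher's exact test, two-sided, on read calls divided by the number of positions, adjusted by Benjamini-Hochberg over all 59459 tiles with 5 common positions. A call needed an adjusted p below 0.01 and levels 10 or more points apart. R was called higher than TKO in 754 of 757 members (99.6%), against 55.8% of all tested tiles and 2.99% of dense tiles below 20%, and in no member was it called lower. All tested tiles include tiles that the WT rule kept out, 16485 dense tiles below 20% among them. The shares of members and of all tested tiles are therefore not like for like. The median difference of R minus TKO was 31.95 points in members and 18.2 points over all tested tiles. The tiles missing a call lay on chromosomes 4 (136327001 to 136328000), 9 (66653001 to 66654000) and 10 (54606001 to 54607000).

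WWD was called higher than TKO in 425 of 757 members (56.1%), against a background of 23.9% of all tested tiles and 0.176% of dense tiles below 20%. At full-depth positions the count was 214 of 719 (29.8%), against 13.1% of all tiles tested there, so it moved by more than 1.5 times with the depth of the positions used. The median difference of WWD minus TKO in members was 12.9 points over all common positions and 7.85 points at full depth, and over all tested tiles it was 4.99 points at all common positions. With a difference of 25 points asked for, 31 members (4.1%) were called, against 5.21% of all tested tiles, so members were then called no more often than the background. On simulated reads of this comparison, tiles changed by 15 points were called in 23 of 100 and those changed by 30 points in 86 of 100. Those tiles were picked at random from all tested tiles, with reads drawn independently at each position, so the counts need not hold for members.

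WWD was called lower than R in 622 of 757 members (82.2%), against 45.1% of all tested tiles and 0.528% of dense tiles below 20%, and higher in none. At 25 points the count was 153 members (20.2%), close to the 20.6% of all tested tiles. Its mean level lay under that of R in 757 of 757 members, with a median difference of -19.2 points, against -10.3 points over all tested tiles. In dense tiles below 20%, where both pools were near the floor, WWD exceeded R in 7434 of 16485 (45.1%). The median ratio of WWD to R was 0.413 in members, with the middle 50% of tiles between 0.338 and 0.501. The call counts measure how far these pools' reads differ, and construct abundance and mutation cannot be told apart here.

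**Figure D2:**
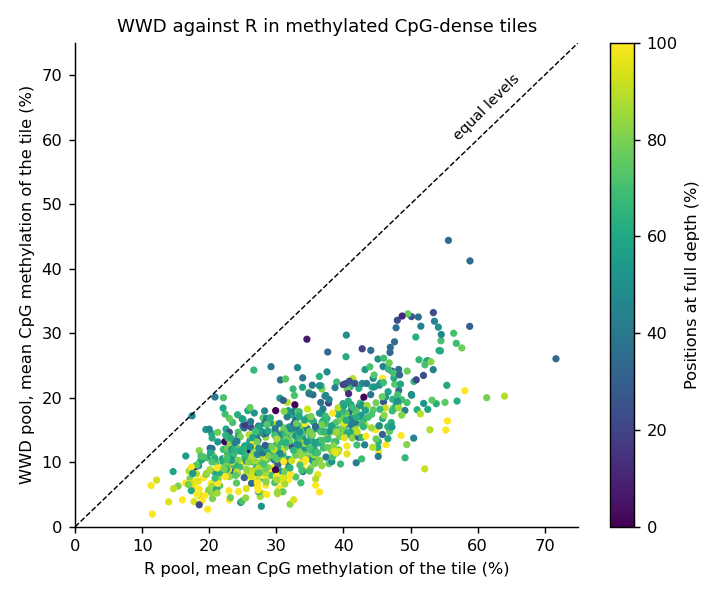
WWD level against R level (mean CpG methylation, percent) in each of the 757 member tiles, coloured by the percent of positions at full depth; the dashed line marks equal levels. All points lie under the line, and tiles with few full-depth positions tend to lie nearer to it.

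C and TKO did not differ by call in any member (0 of 757, and 0 of 59459 over all tested tiles, 0%), and at an unadjusted p under 0.05 the same Fisher test gave 1 member and 53 tiles in all. No member could be called, since C minus TKO ran from -4.12 to 5.49 points and a call needed 10. The 1 member lay on chromosome 2 from 98506001 to 98507000 (adjusted p = 6.05e-31, Fisher's exact test). Its mean levels over positions were 0.422% in C and 0.441% in TKO. The median difference of C minus TKO was 0.028 points. C was at 0 in 36 members and TKO in 61. With 3 read calls as the limit that a count of 0 allows, the median such tile could hold up to 0.204% in C and 0.25% in TKO. This takes read calls as independent, though CpGs on the same read are not, so these limits are too narrow. The level in pools with no recorded construct thus stood far under the medians of 13.4% in WWD and 32.7% in R.

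Individual members spread widely around these means, and the extremes were taken by rank among tiles with at least 10 common positions. The highest level in R with at least 50% of positions at full depth was on chromosome 12 from 5057001 to 5058000, at 20.2% (95% Wilson interval 14.6 to 27.4) in WWD, 64.0% (57.0 to 70.4) in R, 64.3% in WT, 0.761% in C and 1.71% in TKO. Wilson intervals here cover counting error only. They use read calls divided by the number of positions, so that a read counts about once at most. The adjoining tile, 5058001 to 5059000, stood just under 20% in WWD, at 61.4% in R and at 0.112% in TKO. A tile on chromosome 17 from 25521001 to 25522000, all of it at full depth, stood at 21.1% in WWD, 58.1% in R and 0.085% in TKO. These tiles were far above the member mean in R while WWD stood above its own mean of 14.2%. The lowest members in R were chromosome 5 from 35656001 to 35657000, at 6.39% in WWD and 11.3% in R, and chromosome 15 from 102129001 to 102130000, at 7.23% in WWD and 12.1% in R.

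The WWD to R ratio ran from 0.109 to 0.986 among the members. At its lower end stood chromosome 1 from 141839001 to 141840000, with 3.50% in WWD, 32.0% in R and 31.9% in WT (adjusted p for WWD against R = 7.78e-08, Fisher's exact test). Next to it were tiles on chromosome 2 (163882001 to 163883000, 3.18% in WWD and 27.8% in R) and chromosome 5 (109979001 to 109980000, 4.18% in WWD and 32.6% in R). At the upper end, with at least 50% of positions at full depth, stood chromosome 17 from 56616001 to 56617000, at 24.3% in WWD and 26.6% in R (ratio 0.911). That tile and the next 3 in the order, on chromosomes 8 and 10, were not called between WWD and R (adjusted p from 0.0547 to 0.518). At its full-depth positions the chromosome 17 tile stood at 9.16% in WWD and 12.7% in R. Its ratio there was lower, but still above the middle 50% of full-depth ratios, 0.227 to 0.354 over 719 tiles. The highest C level was 5.49%, on chromosome 12 from 112559001 to 112560000, where R was at 27.2% and TKO at 0. That 0 allows up to 0.19% with read calls taken as independent, and up to 3.98% by the Wilson interval. The highest TKO level among tiles with 10 positions was 4.54%, on chromosome 15 from 76008001 to 76009000, against 0.338% at that tile's full-depth positions. Outside these rules, and picked after its values were seen, chromosome 2 from 169711001 to 169712000 was the single member with WWD above WT, at 44.4% in WWD and 44.0% in WT. At its full-depth positions, 33.3% of its positions, it stood at 32.7% in WWD and 47.9% in WT.

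The members just inside the threshold had WT means of 20.05%, 20.06% and 20.1%, and the dense tiles just outside 19.9%, 19.8% and 19.8%. Those means cover all WT positions, and levels at the common positions differ from them. There the tiles just inside stood at 24.7%, 30.2% and 23.5% in R and 21.3%, 23.0% and 20.1% in WT. Just outside they stood at 16.2%, 13.4% and 18.9% in R and 13.3%, 16.8% and 22.4% in WT. Of the dense tiles below 20%, 62 reached 20% in R. The member with the most covered positions was on chromosome 11 from 3093001 to 3094000, with 106. The highest WT coverage, a median of 4083 reads, was on chromosome 2 from 98507001 to 98508000, and leaving out the most deeply covered positions changed no call count by more than 1.5 times.

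Levels varied widely between the positions of a member. In R, the median tile had an SD over positions of 20.1 points, a lowest position of 2.93% and a highest of 73.3%, with 68.4% of its positions at 20% or more. Among 336 tiles with at least 5 positions in the left and in the right 500 bp, both sides reached 20% in 268 and both reached 10% in 329, and a side stood under 5% in 2. The other members did not have that many positions on both sides. Over 9412 full-depth positions, R had 8.95% of positions under 5%, 29.96% from 5 to 20%, 43.2% from 20 to 50%, 17.0% from 50 to 80% and 0.892% at 80% or more. In WWD 51.1% of those positions stood under 5% and 1.02% from 50 to 80%. Levels of 80% or more were rare at full depth, with 0.404% of positions in WT and none in WWD. There C had 99.5% and TKO 99.8% of positions under 5%. Over all 14132 common positions, 2.18% in R and 0.962% in WWD stood at 80% or more. Of 729 tiles, 200 had at least 1 such position in R.

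**Figure D3:**
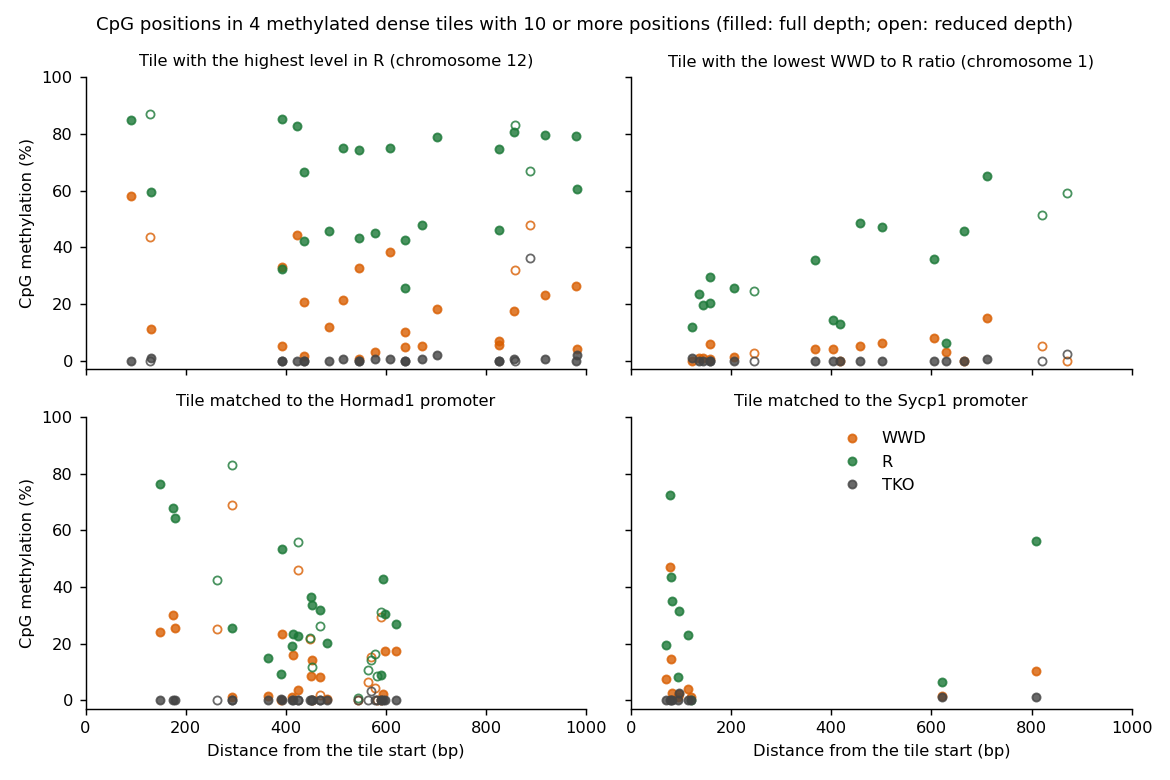
Methylation (percent) of single CpG positions along 4 member tiles, by distance from the tile start (bp), in WWD, R and TKO; filled points are full depth and open points reduced depth. R points lie mostly above WWD points, and nearly all TKO points lie near 0 in the 4 tiles, which include the Hormad1 and Sycp1 promoter tiles.

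Among tiles with 20 to 39 covered positions, members held a median of 18 covered CpGs at a median spacing of 16 bp, and dense tiles below 20% held 22 at 9.5 bp. The class was not matched further, with a median of 23 covered positions in members and 28 in dense tiles below 20%, and CpGs that RRBS did not cover are not counted. The covered stretch was longer, 626 bp in members and 436 bp in dense tiles below 20%. Members lay within 10 Mb of the last covered position of their chromosome in 18.4% of tiles, against 10.8% of dense tiles below 20%, while within 1 Mb the shares were 1.08% and 1.16%. The share of dense tiles that were members ran from 6.43% (80 of 1245) on chromosome 5 to 2.17% (17 of 784) on chromosome 6. These are descriptions of where the rule's tiles fall, without a test.

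The surroundings of the 2 kinds of dense tile stood apart, with no test made. The adjoining tiles at lower and at higher coordinates of members with 20 to 39 positions had median levels of 11.3% and 11.3% in WWD and 33.0% and 31.3% in R, over 189 and 181 tiles. Beside dense tiles below 20%, they had 0.593% and 0.573% in WWD and 0.552% and 0.572% in R, and at 5 kb they had 9.01% and 9.45% in R. Members lay next to a dense tile below 20% in 39 cases (5.15%) and next to another member in 62 (8.18%), while 8142 dense tiles below 20% (49.2%) adjoined another. The median distance to the nearest dense tile below 20% was 23 kb for members and 2 kb among the dense tiles below 20% themselves. With 696 of them in no run, the members lay mostly alone and apart from dense tiles below 20%. The kinds hold 758 and 16535 tiles, so the shares adjoining their own kind are not like for like. Few members had any dense neighbour. At lower coordinates 49 of 739 had one, and 31 of those neighbours were members. Where adjoining tiles had levels, beside 189 and 181 of 739 members, the medians were near those of the members. The WT rule had itself sorted some neighbours. At lower coordinates, 31 tiles beside members were members, and 1745 beside dense tiles below 20% were of that same kind. The contrast is thus partly set by the rule. Of the runs of adjoining members, 26 held 2 tiles, 2 held 3 and 1 held 4, the last on chromosome 4 from 141029001 to 141033000. Its 4 tiles stood at 10.0%, 3.92%, 8.31% and 14.9% in WWD and 26.5%, 17.7%, 21.4% and 33.6% in R.

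**Figure D4:**
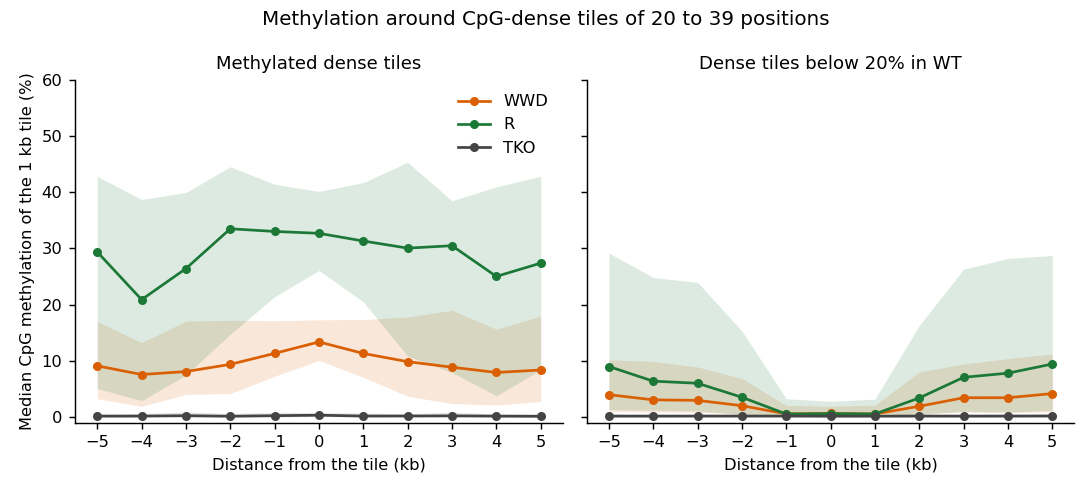
Median methylation (percent, with the middle 50% of tiles shaded) of the 1 kb tiles at distances of -5 to 5 kb from member tiles (left) and dense tiles below 20% (right), in WWD, R and TKO, for tiles of 20 to 39 covered positions. R medians 1 kb from members are 33.0% and 31.3%, and 1 kb from dense tiles below 20% they are 0.552% and 0.572%, with higher values by 5 kb.

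In a few members a single distance between CpGs recurred often. There the pairs of covered CpGs at the commonest distance, adjacent or not, numbered at least 40% of the tile's covered CpGs. This held for 9 of 739 members (1.22%) and 19 of 7240 dense tiles below 20% (0.262%), with 20 to 39 covered positions. The 3 tiles of chromosome 12 at 5057001, 5058001 and 5063001 had 31 bp as their commonest distance. They stood at 20.2%, just under 20% and 8.97% in WWD and 64.0%, 61.4% and 52.1% in R. The repeat content of these tiles was not analysed here.

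The same WT rule, over all WT positions, was then applied to tiles of lower CpG density. Only tiles with at least 5 common positions at full depth were counted, and levels are those at full-depth positions. Such tiles numbered 14438 with 5 to 9 covered positions and 2550 with 20 to 24. The share of tiles at 20% or more in WT was 69.6% with 5 to 9 covered positions, 17.6% with 20 to 24, 2.92% with 30 to 39 and 0.204% with 40 or more. Among the tiles that passed, the mean in R was 36.0% with 5 to 9 positions and 27.5% with 40 or more. The ratio of mean WWD to mean R was 0.263 with 5 to 9 positions, 0.297 with 20 to 24 and 0.345 with 40 or more, the last over 19 tiles. At like levels in R, the median WWD level was higher in members than in sparser tiles, with no test made. With R from 30 to 40%, the median in WWD was 9.84% over 208 members and 8.33% over 5127 tiles of 5 to 19 positions. With R from 10 to 20% it was 4.99% over 131 members and 3.84% over 1320 sparser tiles, and with R from 50 to 60% 17.7% over 22 members and 16.2% over 1396. The middle 50% of tiles overlapped between the kinds in every R class.

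**Figure D5:**
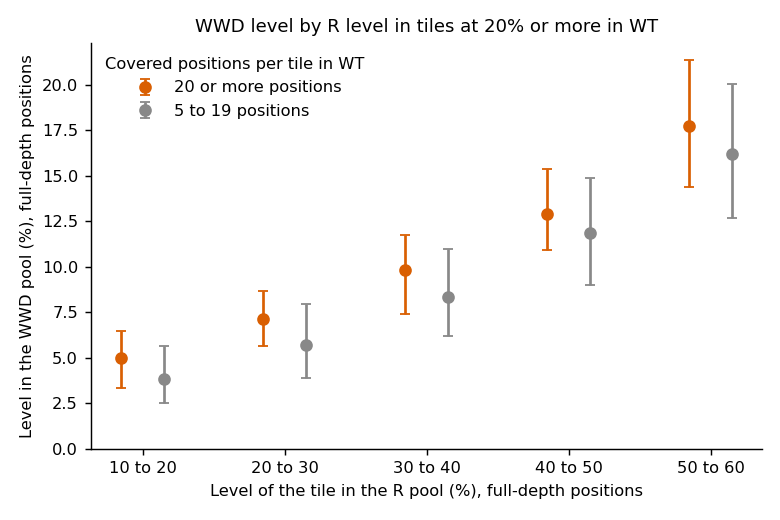
Level in WWD (percent, median with the middle 50% of tiles as bars) by level in R (percent, in classes of 10 points) at full-depth positions, for tiles at 20% or more in WT with 20 or more (orange) and 5 to 19 (grey) covered positions. The orange medians lie above the grey ones in all 5 classes, and the bars overlap.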

How the data were processed

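Genomic DNA was cut with MspI, size-selected, converted with bisulfite and sequenced, per the labels' protocols. Bismark, methylKit and mm9 appear in the submitters' processing notes, without versions. For each CpG position and strand, the authors' tables hold the read count (coverage) and the deposited percent of those reads showing C, per the file headers. All rows used had at least 10 reads. From the 6 tables, a table that the labels tie to no sample was left out, as was the percent of T, which makes 8 unused value columns. Both samples of a group share a table in the labels, so the authors' counts were taken as pooled, which was not tested.

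The members, the gene list and the tests were chosen with earlier results of these data known. Tiles were named by rules on extremes (highest, lowest, threshold, depth, longest run). Methylated reads were the coverage times the percent of C, rounded. PCR copies cannot be told from molecules, so intervals and limits cover counting error only. Tile tests used scipy 1.17.1 and statsmodels 0.14.6 in Python 3.11.15. Dividing reads by positions counts a read about once at most. The limits for a count of 0 were not divided so and took every read call as independent, which makes them narrower than the Wilson intervals. On simulated reads over 59459 tiles, the test of R against TKO called 37 of 100 tiles shifted by 15 points and 83 of 100 shifted by 30 points, with 4 calls in 59259 unshifted tiles. For WWD against R these were 25, 71 and 0. The simulated reads were drawn independently at each position, with no spread between samples, and the shifted tiles were picked at random. The counts therefore do not give the rate of missed or false calls in the real reads. Matching promoters by CpG spacing gave 8571 matches on the same chromosome and 108 on another. Of 8555 at a single place on the same chromosome, the 8544 whose distance to a neighbouring match was like that in RefSeq (within 1 kb) were kept. No coordinates were converted.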

Additional observations from a re-analysis of the deposited data

Results flagged for a closer look

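The X chromosome lies outside the rule for the members. On it, 6 of 394 dense tiles (1.52%) were at 20% or more in WT, and these averaged 8.41% in WWD, 24.9% in R, 21.2% in WT, 0.701% in C and 0.364% in TKO. They were flagged because methylation in a chromosome that no comparison used stood above the level of the TKO pool. WT chose them, and the difference was not tested.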

How the results depend on the processing

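No paired analysis was possible because each group has 1 pooled table, in which numbered samples are not separate, and for the same reason no sample could be left out in turn. R against TKO kept its count within 1.5 times under every alternative (583 to 757 members), and C against TKO stayed at 0. At the main setting no member had C and TKO 10 points apart, so that count of 0 was set by the limit. WWD against TKO gave 425 members, but 253 (35%) with at least 30 reads, 214 (29.8%) at full-depth positions and 31 (4.1%) at a 25-point difference, against 15.4%, 13.1% and 5.21% of all tiles tested at those settings. WWD against R gave 622 members, and 153 (20.2%) at 25 points, against 20.6% of all tested tiles. The excess of members over all tiles was thus not seen at 25 points in either comparison. Members were chosen for methylation in WT and all tiles were not, so the excess at 10 points is partly set by the rule.

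Mean levels follow, in the order WWD, R, C and TKO. With at least 20 reads they were 10.9%, 31.2%, 0.416% and 0.297%, and with at least 30 reads 9.49%, 29.9%, 0.391% and 0.196%. At full-depth positions they were 8.75%, 29.2%, 0.366% and 0.166%, and with a depth class from TKO and C 9.63%, 30.2%, 0.399% and 0.214%. With pooled reads they were 14.3%, 34.9%, 0.810% and 0.565%, and with strands merged 13.8% in WWD, 33.9% in R and 0.469% in TKO. With 30 or more positions they were 13.4% in WWD, 31.8% in R and 0.510% in C, and with 40 or more 14.6%, 31.3%, 0.459% and 0.462%. With WT at 15% or more they were 12.9% in WWD, 29.97% in R and 0.499% in C, with WT at 30% or more 16.1%, 39.1%, 0.558% and 0.634%, and with tiles shifted by 500 bp 13.8%, 33.0%, 0.551% and 0.575%.

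The number of members was 112 with 30 or more positions, 19 with 40 or more, 442 with WT at 30% or more and 4759 with strands merged and 10 or more CpGs. Members matched to a promoter were 11, and 6 when 12 CpGs were asked for, a setting added after the data were seen. R stood above WWD, and WWD above C and TKO, under each setting for which mean levels are given above. The stricter limits on reads, depth and difference leave fewer reads, positions or tiles by construction, and the cause of the other changes was not tested.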
